A study of Mus musculus with 6 samples.

Results

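Transcripts of 9 genes that build, cut and control glycogen were followed in mouse liver, among 37991 gene IDs counted. They are the phosphatase-targeting subunits Ppp1r3b, Ppp1r3c and Ppp1r3g, the liver forms of glycogen synthase (Gys2) and glycogen phosphorylase (Pygl), the branching enzyme Gbe1, the sugar-nucleotide enzyme Ugp2, glycogenin (Gyg) and the liver alpha subunit of phosphorylase kinase (Phka2). The genes were chosen by name, with the counts and the genotype fold changes of these same livers already known, so their differences between genotypes are given as a description and support nothing beyond it. All 9 were found by symbol and all 9 passed the filter on low counts. The livers came from 12-week-old males, 3 of them B6.Zpbp2-/- (Zpbp2 KO), which lack zona pellucida binding protein 2, a protein of sperm, and 3 C57BL/6J wild-type (WT). Both groups share the C57BL/6J strain, and no treatment is named for either. Each library is 1 liver, from poly(A)-selected RNA. Feeding state, hour of collection and the part of Zpbp2 that the allele removes are not stated in the labels used here.

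Glycogen is the branched glucose polymer in which the liver stores sugar after a meal and from which it releases sugar between meals. Ugp2 makes UDP-glucose, glycogenin primes the chain, glycogen synthase lengthens it and Gbe1 adds branches, while phosphorylase cuts glucose units off the ends. Phosphorylase kinase switches phosphorylase on, and protein phosphatase 1 reverses this and switches synthase on. The Ppp1r3 subunits bind both the phosphatase and glycogen and so bring the phosphatase to its substrates.

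Total counts ran from 47821653 to 51328826 in Zpbp2 KO libraries and from 37904891 to 52955687 in WT libraries. Zpbp2 had 0 counts in each Zpbp2 KO liver, against 4, 13 and 7 counts in the WT livers. The 8 hepatocyte markers, led by Alb, had counts in every liver. They summed to 107000 to 112000 CPM (counts scaled to TMM-adjusted library size) in Zpbp2 KO and to 99600 to 106000 CPM in WT livers. The sum was higher in Zpbp2 KO without overlap, but each of the 8 markers alone overlapped between genotypes. Alb stood at 74000 to 77000 CPM in Zpbp2 KO and at 66100 to 75200 CPM in WT livers. Tat leaned the other way, at 1030 to 1310 CPM in Zpbp2 KO and 1260 to 1690 CPM in WT livers. The part of the hepatocyte sum in the results was not tested. Markers of skeletal muscle stood apart in 1 library. Their 7 genes summed to 1.73 to 2.09 CPM in the Zpbp2 KO livers and to 102, 1.87 and 2.04 CPM in WT replicates 1, 2 and 3, with Acta1 at 39.4 CPM and Ckm at 19.9 CPM in WT replicate 1 and both below 0.1 CPM in every other liver. Zpbp2 KO replicate 2 had the lowest sum of 5 Kupffer cell markers, 100 CPM against 297 and 317 CPM in the other Zpbp2 KO livers and 174 to 244 CPM in WT livers. In whole liver, fewer cells of a type and less RNA per cell cannot be told apart.

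The stretch of 250 bases before the start of each gene is shown for Ppp1r3c, whose levels separated the genotypes, and for Ppp1r3g and Gbe1, which were highest in the same livers as each other. The sequences come from RefSeq on GRCm38.p6, where 7 of the 9 genes were matched, and are read along the strand of the gene. Capitals mark matches, on either strand, to the letters searched. These were the core TGACG of the cAMP response element and its full form TGACGTCA, which contains the core, the E-box CACGTG bound by basic helix-loop-helix factors, the FOXO core GTAAACA and the TATA box TATAAA. The Ppp1r3c stretch is chr19:36736605-36736854 on the minus strand, that of Ppp1r3g chr13:35967656-35967905 on the plus strand and that of Gbe1 chr16:70313699-70313948 on the plus strand.
Ppp1r3c: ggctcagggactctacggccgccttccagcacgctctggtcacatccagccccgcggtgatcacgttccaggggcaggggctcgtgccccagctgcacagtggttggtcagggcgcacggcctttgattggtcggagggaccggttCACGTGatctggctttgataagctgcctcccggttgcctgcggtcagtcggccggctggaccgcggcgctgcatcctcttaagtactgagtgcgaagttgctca
Ppp1r3g: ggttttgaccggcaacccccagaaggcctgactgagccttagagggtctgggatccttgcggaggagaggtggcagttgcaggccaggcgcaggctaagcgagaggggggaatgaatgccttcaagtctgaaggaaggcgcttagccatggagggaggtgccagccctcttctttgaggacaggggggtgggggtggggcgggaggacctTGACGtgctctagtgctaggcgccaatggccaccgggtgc
Gbe1: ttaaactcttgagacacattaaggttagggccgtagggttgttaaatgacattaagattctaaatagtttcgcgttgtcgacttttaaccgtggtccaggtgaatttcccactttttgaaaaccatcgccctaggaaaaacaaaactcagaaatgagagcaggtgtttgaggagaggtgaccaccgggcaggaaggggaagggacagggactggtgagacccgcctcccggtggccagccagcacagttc
In the Ppp1r3c stretch the single match was an E-box that begins at position -104 from the start, and 6.02% of 32851 promoter stretches of this length hold one. The Ppp1r3g stretch held 1 TGACG core at position -40, read here in the direction of the gene, and the Pygl stretch, not printed, held 1 at -44; 17.8% of all stretches hold one. Neither the full cAMP response element (1.55% of stretches), the FOXO core (3.17%) nor the TATA box (12.4%) was matched in any stretch of the 7 genes, and the Gbe1 stretch held none of the letters searched.

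Ppp1r3c, also called PTG (protein targeting to glycogen), was the 1 gene of the 9 whose levels did not overlap between genotypes. It stood at 36.8, 59.0 and 47.0 CPM in Zpbp2 KO replicates 1 to 3, against 90.3, 116 and 92.5 CPM in WT replicates 1 to 3. Every knockout liver lay below every WT liver, and the highest knockout liver, replicate 2, was still well under the lowest WT liver, replicate 1. The means were 47.6 ± 11.1 CPM in Zpbp2 KO and 99.5 ± 14.1 CPM in WT livers (SD, n = 3 each), a log2 fold change of -1.06 ± 0.180 (SE), which is 2.09-fold lower in Zpbp2 KO.

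The fit across all genes did not call this difference under edgeR's quasi-likelihood F-test (Benjamini-Hochberg adjusted p = 0.287; adjusted p = 0.284 by limma-voom), while DESeq2 called it (adjusted p = 4.44e-05). Of 14686 tested genes, edgeR called 2, or 0.0136%, both lower in Zpbp2 KO (Sik1 and Nr4a1), and DESeq2 called 76, or 0.518%, of which 49, or 0.334%, were lower. Levels without overlap and lower in Zpbp2 KO were found in 883 genes, or 6.01%. Since the gene was listed with this contrast known, nothing is read from these shares. In each of the 14 alternative fits its log2 fold change was below 0, between -1.25 and -0.91. With WT replicate 1, the library with the muscle marker transcripts, left out, it was -1.13 ± 0.200.

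**Figure D1:**
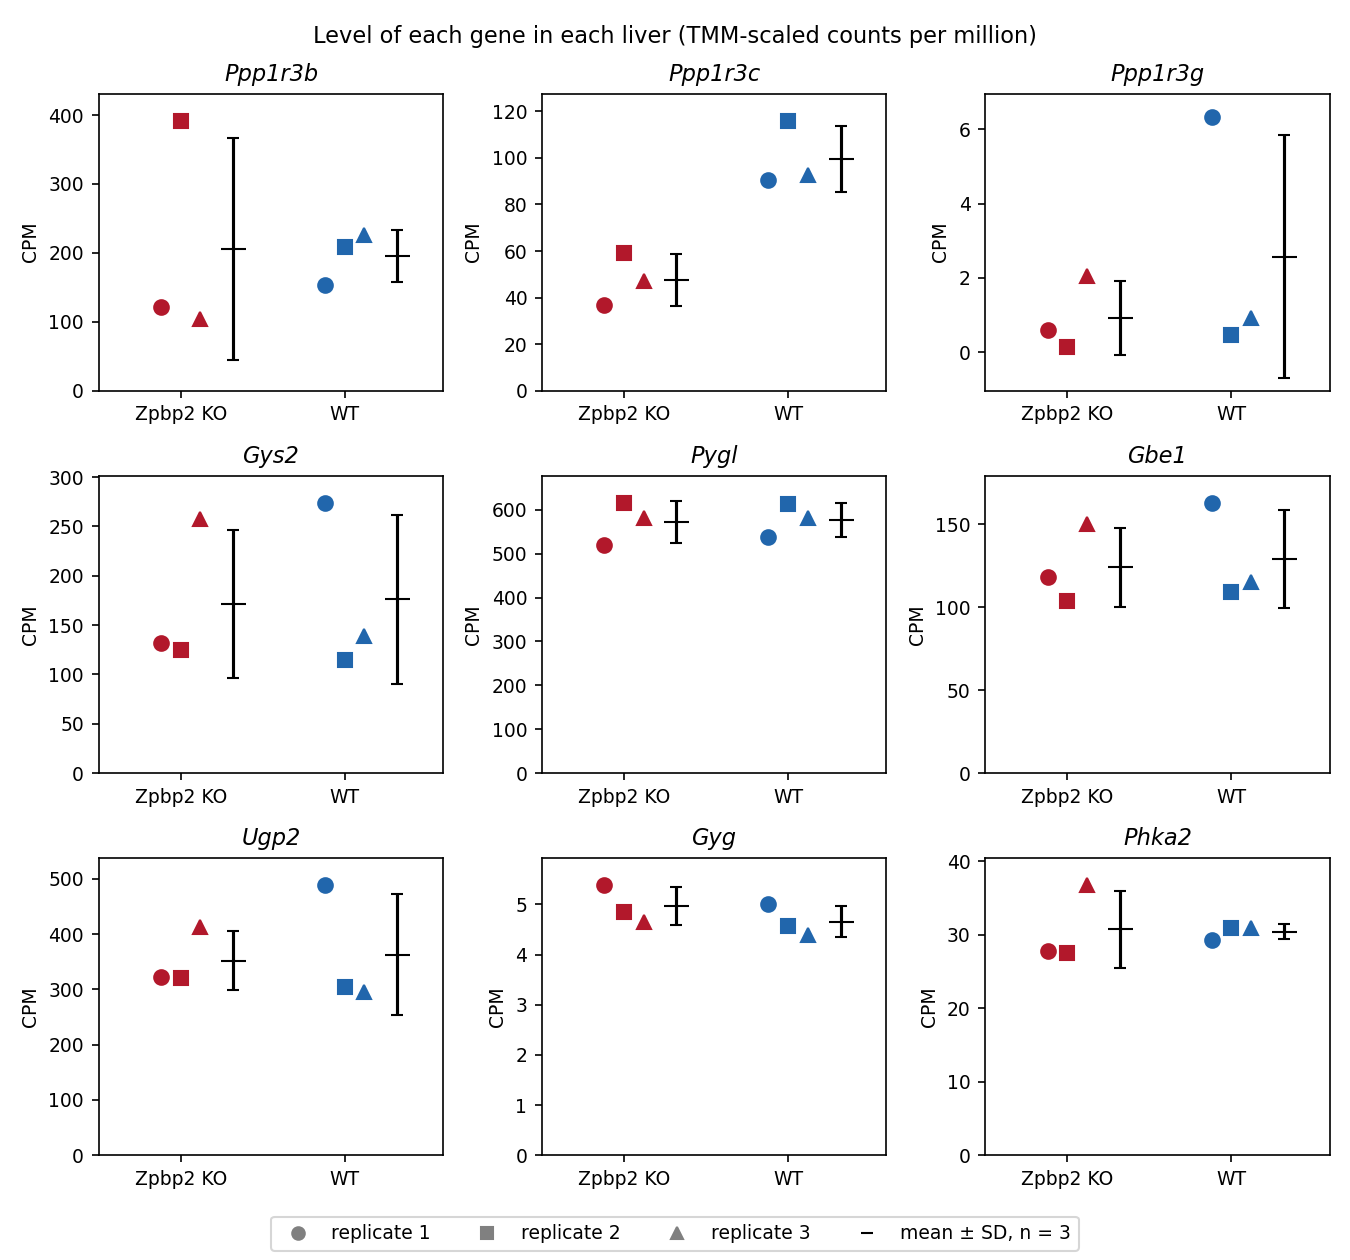
Level of each of the 9 genes in CPM on TMM-scaled library sizes, Zpbp2 KO livers left and WT livers right of each panel, with 1 symbol per replicate number and the mean ± SD of 3 livers in black. In the Ppp1r3c panel all 3 Zpbp2 KO livers (36.8 to 59.0 CPM) lie under the WT livers (90.3 to 116 CPM), and in the other 8 panels the groups overlap.

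Ppp1r3b encodes the subunit known as GL, the main one described for liver. It stood at 121, 392 and 104 CPM in Zpbp2 KO replicates 1 to 3, against 154, 208 and 226 CPM in WT livers. The knockout livers lay on both sides of WT, since replicate 2 was the highest of all 6 livers and replicates 1 and 3 were the lowest. The log2 fold change was 0.07 ± 0.458, and without Zpbp2 KO replicate 2 it turned to -0.80 ± 0.178 (Benjamini-Hochberg adjusted p = 0.594 under edgeR's F-test). Replicate 2 is also the liver with the lowest Kupffer cell and leukocyte marker sums (100 and 24.5 CPM) and the highest erythroid sum (359 CPM). The erythroid sum was also high, at 308 CPM, in Zpbp2 KO replicate 1, where Ppp1r3b was low. Of the leukocyte markers, Itgam was lowest in WT replicate 3 (0.419 CPM) and Cd3e in WT replicate 2 (0.187 CPM). The part of these cells in the result was not tested.

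Ppp1r3g, a subunit whose level in mouse liver is known to change between fasting and feeding, was the scarcest of the 9 and the most variable. Zpbp2 KO replicates 1 to 3 held 28, 6 and 107 counts (0.585, 0.132 and 2.05 CPM), and WT replicates 1 to 3 held 332, 25 and 35 counts (6.33, 0.467 and 0.917 CPM). WT replicate 1 and Zpbp2 KO replicate 3 were the 2 highest livers, and the groups overlapped widely. Its log2 fold change of -1.47 ± 1.05 was the lowest of the 9 and rested on WT replicate 1, without which it was 0.46 ± 0.903; without Zpbp2 KO replicate 3 it was -2.83 ± 1.26. WT replicate 1 was also the library with the muscle transcripts, and their part in this value was not tested.

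Per kilobase of exon, Ppp1r3b and Ppp1r3c together made up 94.0% to 98.7% of the summed level of the 7 Ppp1r3 genes in each liver. Ppp1r3c took 39.5%, 25.3% and 47.7% of that sum in Zpbp2 KO replicates 1 to 3, against 53.8%, 55.0% and 47.4% in WT replicates 1 to 3. Its share overlapped between the genotypes by a narrow margin, since Zpbp2 KO replicate 3 lay just above WT replicate 3. Ppp1r3b took 57.1%, 73.5% and 46.3% in the Zpbp2 KO livers, against 40.1%, 43.4% and 50.7% in the WT livers. The sum itself was 34.2, 85.8 and 36.2 RPKM (CPM per kilobase of exon) in the Zpbp2 KO livers and 61.6, 77.2 and 71.7 RPKM in the WT livers. Zpbp2 KO replicate 2 was again the highest liver and the other knockout livers the lowest. With coding length in place of exon length the share of Ppp1r3c was lower, 11.8% to 27.8% in Zpbp2 KO and 26.5% to 33.3% in WT livers.

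The ratio of Ppp1r3b to Ppp1r3c on the CPM scale was 3.30, 6.64 and 2.21 in Zpbp2 KO replicates 1 to 3, against 1.70, 1.80 and 2.44 in the WT livers. This ratio is not scaled for length, with 6216 exon bases in Ppp1r3b and 2725 in Ppp1r3c. It can be compared between livers, but its size does not give the relative level of the 2 genes. Knockout replicates 1 and 2 lay above every WT liver, and replicate 3 lay within the WT range.

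Gys2, the liver enzyme that lengthens glycogen chains, varied more between livers of a genotype than between genotypes. It stood at 132, 125 and 258 CPM in Zpbp2 KO replicates 1 to 3, against 274, 115 and 139 CPM in WT replicates 1 to 3. In each genotype 1 liver stood far above the other 2, replicate 3 among the knockouts and replicate 1 among WT. The means, 172 ± 74.8 CPM in Zpbp2 KO and 176 ± 85.4 CPM in WT livers (SD, n = 3 each), gave a log2 fold change of -0.03 ± 0.370.

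Ugp2 and Gbe1, the enzymes that supply UDP-glucose and add branches, had the same high livers with a smaller swing. Ugp2 stood at 323, 320 and 413 CPM in Zpbp2 KO replicates 1 to 3 and at 489, 304 and 296 CPM in WT replicates 1 to 3. Gbe1 stood at 118, 104 and 150 CPM in Zpbp2 KO and at 163, 109 and 115 CPM in WT livers. Their log2 fold changes were -0.04 ± 0.204 for Ugp2 and -0.06 ± 0.186 for Gbe1. Without WT replicate 1 the log2 fold changes of Gys2, Ugp2 and Gbe1 were 0.43, 0.23 and 0.14, and without Zpbp2 KO replicate 3 they were -0.45, -0.17 and -0.22.

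Thus Ppp1r3g, Gys2, Gbe1 and Ugp2 each had Zpbp2 KO replicate 3 as the highest knockout and WT replicate 1 as the highest WT liver. That is 4 of the 9 genes, or 44.4%, beside 2272 of all 14686 tested genes (15.5%); the pattern was noticed in these livers and has no test. Relative to the mean log2 CPM of the same genotype, Zpbp2 KO replicate 3 lay 1.78 above for Ppp1r3g, 0.67 for Gys2, 0.29 for Gbe1 and 0.24 for Ugp2. WT replicate 1 lay 2.13 above for Ppp1r3g, 0.74 for Gys2, 0.36 for Gbe1 and 0.47 for Ugp2. The order of the 4 genes by size of swing was the same in both livers but for Gbe1 and Ugp2. Marker sums of other cells also differed in these livers. The muscle marker sum was 2.09 CPM in Zpbp2 KO replicate 3 and 102 CPM in WT replicate 1. The Kupffer cell sum was 317 CPM in Zpbp2 KO replicate 3 and 244 CPM in WT replicate 1. The sum of 5 leukocyte markers was 76.9 and 65.8 CPM in the same livers, of which Lyz2 alone held 58.1 and 50.7 CPM. Each sum was the highest of its genotype, but some margins were narrow. In Zpbp2 KO replicate 1 the muscle, Kupffer cell and leukocyte sums were 1.99, 297 and 73.1 CPM. In WT replicate 2 the Kupffer cell and leukocyte sums were 205 and 61.7 CPM. Vsig4, Cd5l, Timd4 and Ptprc peaked with the sums. Other markers did not follow their sum. Clec4f (131 CPM), Lyz2 (58.5 CPM) and Cd79a (2.51 CPM) were highest of the knockouts in replicate 1. Marco (18.2 CPM) and Itgam (1.59 CPM) were highest of WT in replicate 2. Cd3e was highest of WT in replicate 3 (0.367 CPM), just above WT replicate 1 (0.362 CPM). The sum of 6 erythroid markers was the lowest of its genotype in both, at 170 CPM in Zpbp2 KO replicate 3 (308 and 359 CPM in the other knockout livers) and at 154 CPM in WT replicate 1 (227 and 226 CPM in the other WT livers). Their part in the pattern was not tested.

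**Figure D2:**
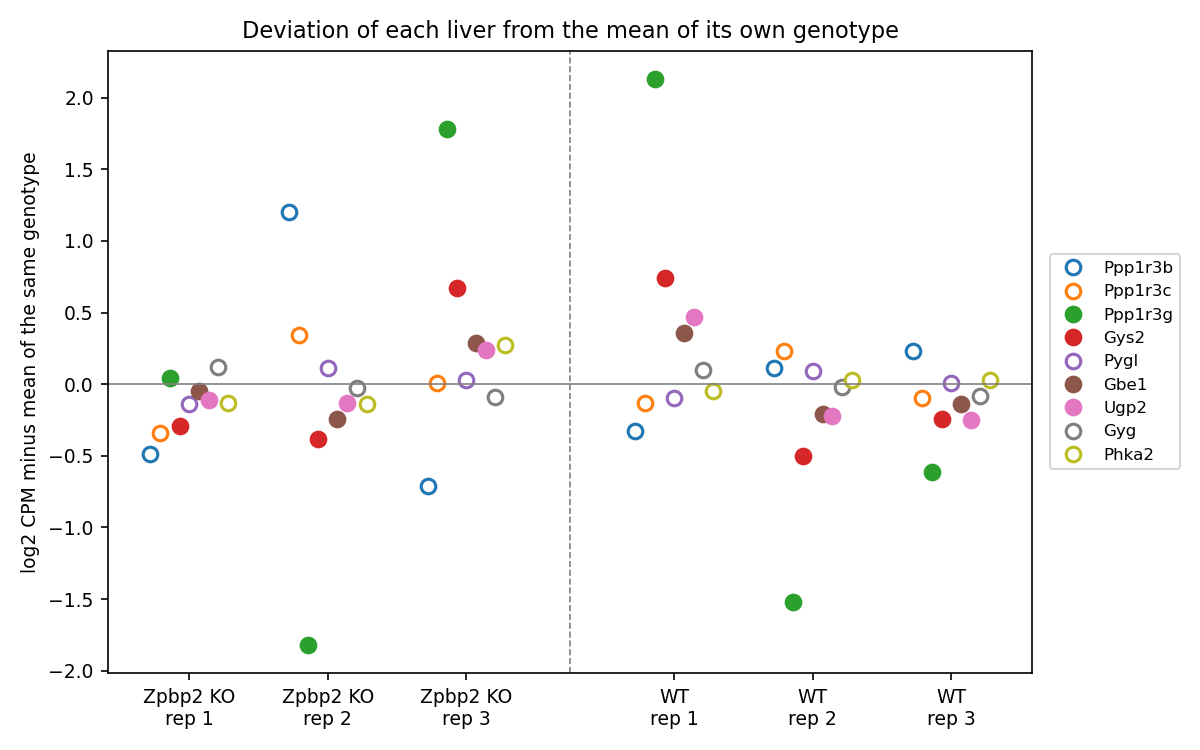
Deviation of each liver from the mean log2 CPM of its own genotype, Zpbp2 KO livers left and WT livers right of the dashed line, 1 colour per gene, filled points for Ppp1r3g, Gys2, Gbe1 and Ugp2 and open points for the rest. The 4 filled genes peak in Zpbp2 KO replicate 3 (0.24 to 1.78) and in WT replicate 1 (0.36 to 2.13), and Ppp1r3b peaks in Zpbp2 KO replicate 2 (1.20).

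Pygl, which releases glucose from glycogen, varied little between livers. It stood at 520, 616 and 581 CPM in Zpbp2 KO replicates 1 to 3 and at 537, 612 and 581 CPM in WT replicates 1 to 3, with a log2 fold change of -0.01 ± 0.104. Phka2, whose loss gives liver glycogen storage disease in people, stood at 27.8, 27.6 and 36.8 CPM in Zpbp2 KO and at 29.3, 31.0 and 31.0 CPM in WT livers (0.01 ± 0.132). Zpbp2 KO replicate 3 was its highest liver, and the rest lay within a narrow band. Gyg, the primer of the chain, stood at 5.39, 4.85 and 4.66 CPM in Zpbp2 KO and at 5.0, 4.58 and 4.40 CPM in WT livers (0.09 ± 0.157). Values of Ugp2 and Phka2 could hold a few reads of antisense genes that share exon bases with them, since the strand setting of the counting is not given, but those genes held 27 and 19 counts over all libraries.

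The spread between livers of one genotype, as a pooled SD of log2 CPM with 4 degrees of freedom, set the 9 genes apart from one another. It was 1.85 for Ppp1r3g, 0.768 for Ppp1r3b and 0.620 for Gys2. These lay above 99.8%, 99.2% and 98.5% of the tested genes whose mean log2 CPM was within 1 of theirs. The spread was 0.323 for Ugp2, 0.291 for Gbe1 and 0.278 for Ppp1r3c, above 92.1%, 90.6% and 88.9% of genes of like level. Phka2 (0.171), Pygl (0.111) and Gyg (0.101) lay above 59.1%, 31.5% and 5.84%. Phka2, Pygl and Gyg thus held the narrowest spreads of the 9. The order does not follow the steps of the pathway, since Gyg primes the chain that Gys2 lengthens. The spread of Ppp1r3b lay mostly within Zpbp2 KO, where the highest liver was 3.76 times the lowest, against 1.47 times in WT. These percentages describe the 6 livers and are no test.

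Per kilobase of exon, Ugp2 had the highest level, 116 ± 25.0 RPKM (SD over all 6 livers), and lay above Pygl, at 83.3 ± 5.67 RPKM, in every liver without overlap. Gys2 followed at 65.4 ± 27.0 RPKM, with a range that overlapped that of Pygl. Ppp1r3b (32.3 ± 16.9 RPKM), Ppp1r3c (27.0 ± 11.2 RPKM) and Gbe1 (23.6 ± 4.47 RPKM) overlapped with their neighbours. Phka2 (5.04 ± 0.559 RPKM) was lower than Gbe1 in every liver, and Gyg (2.05 ± 0.150 RPKM) lower than Phka2 in every liver. Ppp1r3g came last at 0.0488 to 2.35 RPKM, and in WT replicate 1 it reached above Gyg. Of the 8 pairs of neighbours in this order, 5 overlapped. The order among the upper genes depends on the length used, since Pygl came first with the longest transcript and Ppp1r3b with the coding length.

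**Figure D3:**
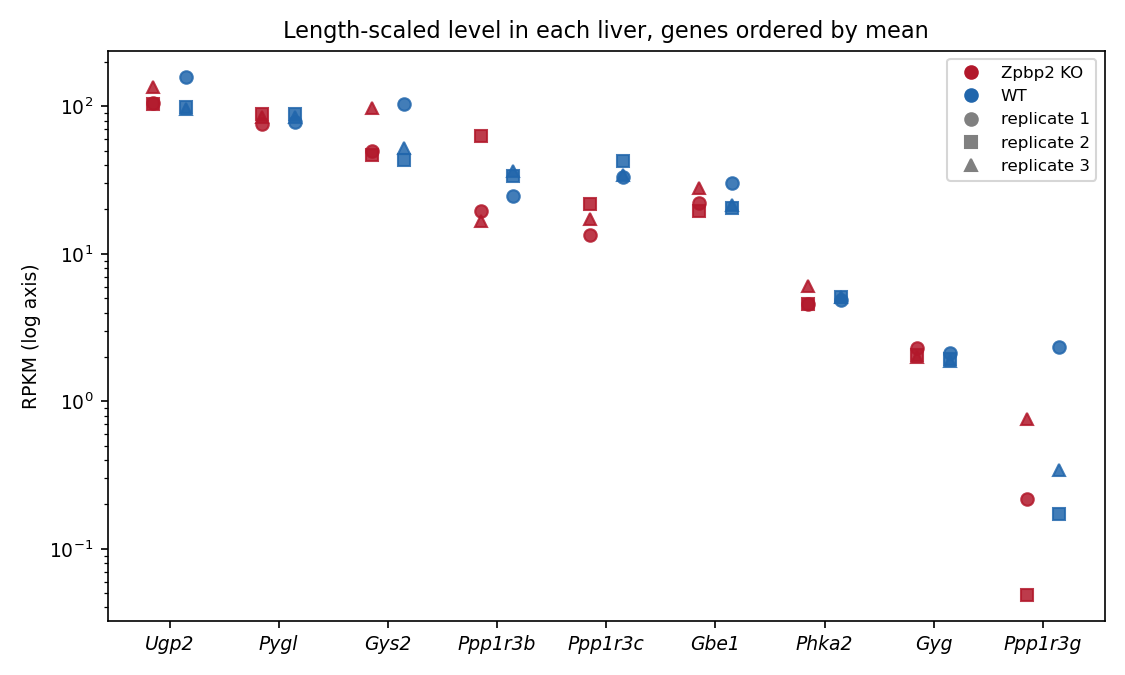
Level per kilobase of exon (RPKM, log axis) of the 9 genes in each liver, ordered by the mean of 6 livers, Zpbp2 KO left and WT right within each gene, with 1 symbol per replicate number. Ugp2, Pygl and Gys2 lead, Phka2 and Gyg form separate lower steps, and Ppp1r3g spans 0.0488 to 2.35 RPKM.

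The liver forms of the enzymes made up most of each isoform family, and their shares differed between genotypes by less than the larger SD. Gys2 made up 99.0 ± 0.250% of the summed RPKM of Gys2 and the muscle form Gys1 in Zpbp2 KO and 99.0 ± 0.400% in WT livers (SD, n = 3 each). Pygl made up 98.0 ± 0.589% of the phosphorylases in Zpbp2 KO and 97.2 ± 1.63% in WT livers, the lowest share, 95.3%, being that of WT replicate 1. Phka2 made up 77.2 ± 2.29% of the alpha subunits in Zpbp2 KO and 76.0 ± 1.19% in WT livers, the rest being the muscle form Phka1. Phkg2, the liver catalytic subunit, made up 99.3% to 99.9% of its pair in every liver.

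The lower share of Pygl in WT replicate 1 came with the muscle form Pygm, which had 65, 43 and 66 counts in the Zpbp2 KO livers and 357, 65 and 61 counts in WT replicates 1 to 3. The muscle-specific subunit Ppp1r3a had 0, 5 and 0 counts in the Zpbp2 KO livers and 22, 1 and 0 counts in WT replicates 1 to 3. Both genes are among the muscle markers that stood apart in WT replicate 1. The log2 fold change of Pygm was -1.44 ± 0.613 with all livers and -0.23 ± 0.280 without WT replicate 1.

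Of 35 further genes of glycogen handling and its hormonal control, 33 passed the filter on low counts, and Phkg1 and Ppp1r3a did not. edgeR called 0 higher and 0 lower (before adjustment, p was below 0.05 for 0 higher and 2 lower genes, against 2.86% and 2.93% of all tested genes), and DESeq2 and limma-voom called 0. Their median log2 fold change was -0.02, beside 0.01 over all tested genes, with 13 above 0 and 20 below. The median of the 9 genes was -0.03, with 3 above 0 and 6 below.

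The 2 with an unadjusted p below 0.05 were Pygm and G6pc. G6pc, the catalytic subunit that frees glucose from glucose 6-phosphate for export, stood at 288, 785 and 198 CPM in Zpbp2 KO replicates 1 to 3, against 1020, 950 and 693 CPM in WT replicates 1 to 3. Zpbp2 KO replicate 2 lay within the WT range and the other knockout livers under it (log2 fold change -1.07 ± 0.450, and -1.87 ± 0.227 without Zpbp2 KO replicate 2). Zpbp2 KO replicate 2, the liver with the highest Ppp1r3b, thus also had the highest G6pc among knockouts.

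Among the 33, 3 showed no overlap between genotypes, where 11.6% of all tested genes do. Gaa, the lysosomal enzyme that degrades glycogen, averaged 98.5 ± 3.76 CPM in Zpbp2 KO and 113 ± 7.44 CPM in WT livers (-0.19 ± 0.0924). The catalytic subunit Ppp1cb averaged 104 ± 0.950 CPM in Zpbp2 KO and 113 ± 12.7 CPM in WT livers (-0.13 ± 0.103). Its highest knockout liver and its lowest WT liver both rounded to 105 CPM. Without WT replicate 1 the log2 fold change of Ppp1cb was -0.03 ± 0.094. Ppp1r3d, a minor targeting subunit, stood at 0.307 to 0.439 CPM in Zpbp2 KO and at 0.0747 to 0.267 CPM in WT livers (0.94 ± 0.460). These levels rest on few counts, 21, 14 and 16 in the Zpbp2 KO livers and 14, 4 and 8 in the WT livers.

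Of the 33, 8 had Zpbp2 KO replicate 3 and WT replicate 1 as the highest of their genotypes, or 24.2%, beside 15.5% of all tested genes. Among them was Slc2a2, the glucose transporter of hepatocytes, at 229, 260 and 365 CPM in Zpbp2 KO and 373, 217 and 222 CPM in WT livers. Stbd1, which tethers glycogen to membranes, stood at 78.3, 61.0 and 93.3 CPM in Zpbp2 KO and 126, 53.3 and 79.8 CPM in WT livers. The swing was small in others of the 8, such as Pgm1, at 220, 222 and 228 CPM in Zpbp2 KO and 245, 214 and 218 CPM in WT livers.

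**Figure D4:**
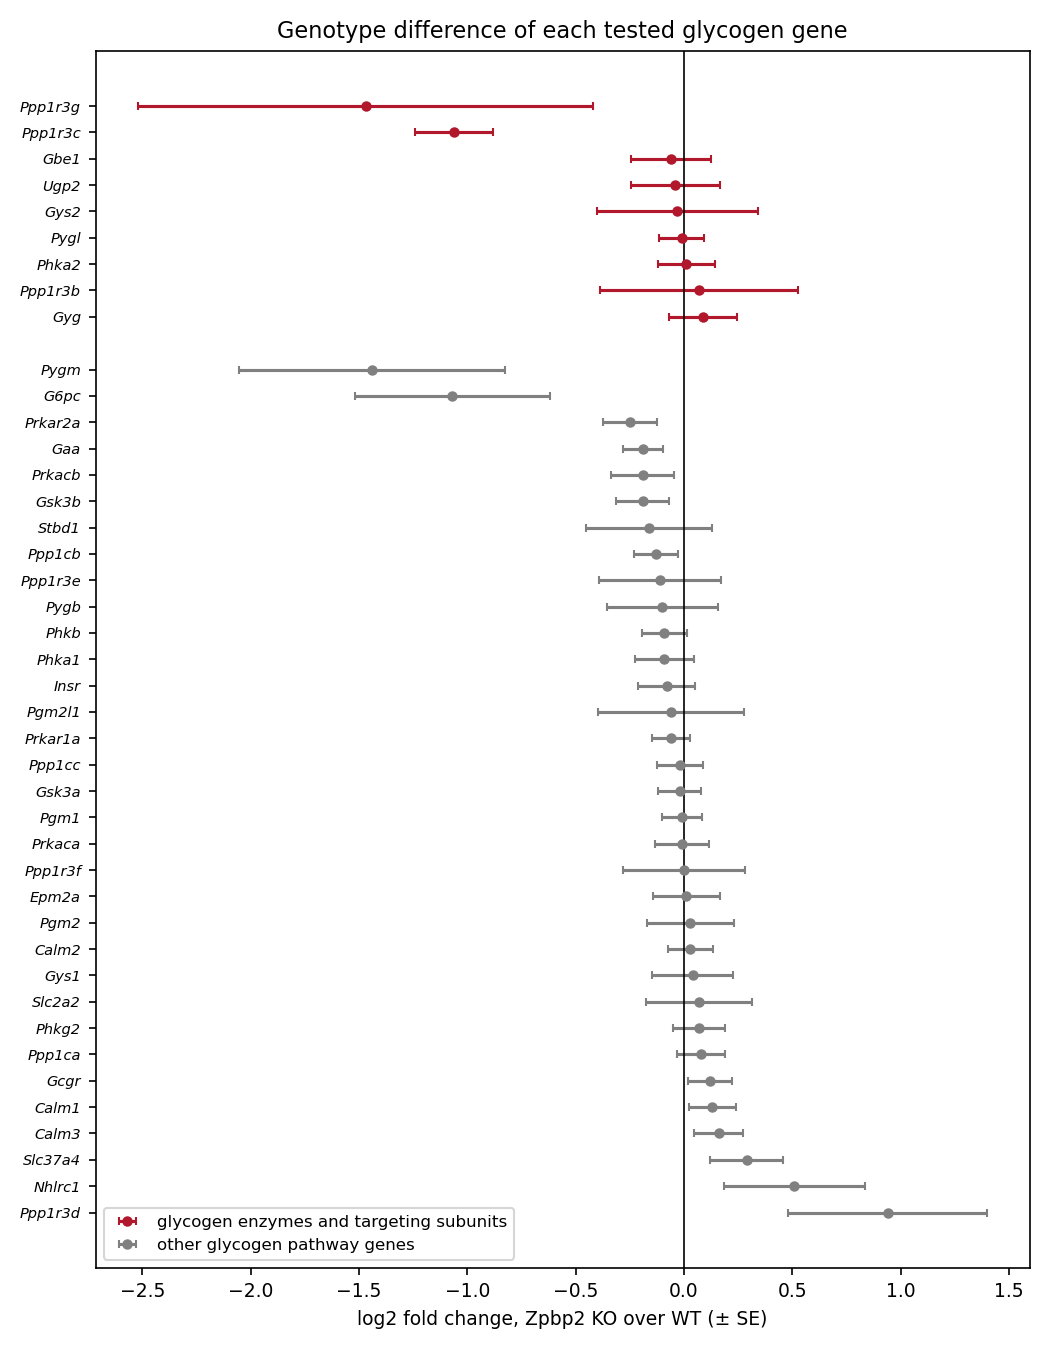
Log2 fold change of Zpbp2 KO over WT ± SE from the edgeR fit for the 9 genes (red, top) and the 33 tested further glycogen genes (grey). Ppp1r3c at -1.06 ± 0.180 lies away from 0 by several SE, most others lie within 1 or 2 SE of 0, and Ppp1r3g at -1.47 has an SE of 1.05.

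The tested genes whose levels over the 6 livers were most like those of Ppp1r3c, by Pearson's r on log2 CPM among 12041 genes whose mean log2 CPM was 0 or more, were Anpep (0.985), Dnajc18 (0.983), Trp53inp1 (0.978), Ccn1 (0.969) and Med12l (0.968). All 5 were lower in each knockout liver than in each WT liver, so r reflects in part the gap between genotypes, and it rests on 6 livers. Ccn1, a secreted matrix protein, stood at 6.04, 10.7 and 7.62 CPM in Zpbp2 KO, against 20.7, 18.7 and 18.9 CPM in WT livers (log2 fold change -1.26 ± 0.201). Trp53inp1, a p53-induced protein, stood at 48.5, 71.7 and 51.7 CPM in Zpbp2 KO, against 94.7, 109 and 108 CPM in WT livers (-0.86 ± 0.156). In each of the 5 Zpbp2 KO replicate 2 was the highest knockout liver, as for Ppp1r3c, which the choice by r over these same livers favours.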

How the data were processed

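RNA-seq counts of 6 livers were used, 3 Zpbp2 KO and 3 WT, each column matched to its sample by title. The deposited values are raw, unnormalized read counts for each Ensembl ID in each library. STAR, Picard and HTSeq and the build mm9 are named per the submitters' processing notes; versions, settings and annotation were not stated there. Non-coding genes were counted too (Malat1 had 82125 counts). The deposited counts are labelled CDS, which can stand for coding sequence. Neither point shows whether reads in exons outside the coding sequence of coding genes were counted. Levels per kilobase of exon assume that they were. With coding length instead, the mean of Ppp1r3b over the 6 livers was 236 RPKM, in place of 32.3 RPKM. Symbols, for 86.6% of IDs, and lengths came from GENCODE M21.

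Genes passing filterByExpr (minimum count 10) were tested, Zpbp2 KO against WT, by edgeR 4.0.16 (TMM, quasi-likelihood F-test, no covariate, two-sided) with Benjamini-Hochberg adjustment over all 14686, at 0.05, in R 4.3.3. The SE is that implied by the test. RPKM is TMM-scaled CPM per kilobase of the union of exons. Alternatives used DESeq2 1.42.0, limma-voom (limma 3.58.1), other scalings and filters, a replicate block, removal of the length and GC trend, and each library left out. The tests were checked on simulated counts. Log2 CPM used a prior count of 2.

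The genes, lists, motifs and tests were chosen with earlier results of these data known. All 9 genes are named. Further pathway genes are counted, with values for those past an unadjusted p of 0.05 or without overlap. Values are also given for Slc2a2, Stbd1 and Pgm1, chosen after their values were seen. Some genes of the pathway list are not reported here, and its counts leave them out. Genes like Ppp1r3c are the 5 with the highest r, clone and prediction names left out. Replicates of a genotype differed by a chi-square of 19.9 to 102 per gene, so none was a copy of another. Counting error alone allows up to 3 counts behind a count of 0.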

Additional observations from a re-analysis of the deposited data

How the results depend on the processing

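edgeR called 2 of all tested genes. DESeq2 called 76, edgeR without a filter on low counts called 12, and edgeR with 1 library left out called 2 to 4; the cause was not tested, apart from the larger number of genes (22913) in the unfiltered fit. Of the 9 genes, edgeR called 0 and DESeq2 1, Ppp1r3c; limma-voom and the other edgeR fits called 0. The adjusted p of Ppp1r3c ran from 4.44e-05 by DESeq2 to 0.724 without WT replicate 3, and was 0.0548 without a filter. Ppp1r3c and Gyg kept their sign in all 14 alternatives. The other 7 turned sign in 1 to 4 of them, Ppp1r3b between -0.80 and 0.39, Ppp1r3g between -2.83 and 0.46 and Gys2 between -0.45 and 0.43. The median log2 fold change over all tested genes lay between -0.019, with library totals, and 0.020, without WT replicate 1. The number of overlapping neighbours in level was 5 under each length and scaling tried; coding length was added after seeing the data.

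Replicate numbers gave no clear pairing of the livers. Deviations of same-numbered livers correlated over genes at 0.142, 0.197 and -0.237. Zpbp2 KO replicate 1 correlated best with WT replicate 1. Zpbp2 KO replicates 2 and 3 correlated best with WT replicates 3 (0.232) and 1 (0.229). Deviations within a genotype sum to 0, so these values constrain one another and cannot exclude a pairing. With the replicate block edgeR called 2 genes and 0 of the 9, with Ppp1r3c at an adjusted p of 0.096. No detection limit was computed for 3 livers a genotype.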
